A study of Arabidopsis thaliana with 24 samples.

Results

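The 9 genes described here make and steer cellulose of the primary cell wall (CW) in Arabidopsis thaliana. They were chosen by name and known role from 33602 genes in the deposited tables. The rule uses no measured value, but earlier results of these data were known when the genes were chosen. They are the cellulose synthase genes CESA1, CESA2, CESA3, CESA5 and CESA6, the endoglucanase gene KOR1, the linker gene CSI1, the anchored wall protein gene COB and the companion gene CC1. Shoots of seedlings aged 7 days were used for RNA-seq. The seedlings were wild type (WT) or the EXPA1 OE line 8-4, both in ecotype Col-0, raised on MS medium in long days. Each line received no dexamethasone (Dex), a Dex induction of 3 h, or Dex throughout the 7 days, and 4 biological replicas in each of the 6 groups gave 24 libraries. The line carries EXPA1, which encodes an expansin that loosens CWs, under the pRPS5A>GR system. In it the RPS5A promoter, which is most active in dividing and young tissue, drives a transcription factor that enters the nucleus when Dex, a synthetic glucocorticoid, binds to it. WT plants given Dex carry no such factor and serve as the control for Dex itself. The EXPA1 OE groups all come from 1 line.

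Cellulose is spun at the plasma membrane by rosette-shaped complexes of CESA proteins. A complex of the primary CW needs CESA1, CESA3 and a protein of the CESA6-like class, to which CESA2, CESA5 and CESA6 belong, whereas CESA4, CESA7 and CESA8 build the complex of the secondary CW. KOR1 (KORRIGAN1) is a membrane-bound endoglucanase that travels with the complex, CSI1 ties the complex to cortical microtubules, CC1 is a companion protein that helps microtubules and cellulose synthesis to persist under salt, and COB (COBRA) is an extracellular anchored protein needed for oriented growth. In growing shoots these genes are known for expression in most expanding cells, and loss of CESA1 or CESA3 function is known to give short, swollen organs.

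In TAIR10 coordinates of the authors' exon table, CESA1 (AT4G32410) lies on the minus strand of chromosome 4 from 15640620 to 15646665 and CESA2 (AT4G39350) on the plus strand of the same chromosome from 18296797 to 18302192. Chromosome 5 holds CESA3 (AT5G05170) from 1530174 to 1535414 and CESA5 (AT5G09870) from 3073356 to 3078262. It also holds CESA6 (AT5G64740) from 25881066 to 25886694, KOR1 (AT5G49720) from 20197391 to 20200288 and COB (AT5G60920) from 24511196 to 24514129. CSI1 (AT2G22125) lies on chromosome 2 from 9406263 to 9414518 and CC1 (AT1G45688) on chromosome 1 from 17191390 to 17193158. No other gene of the table overlaps any of them, and counts over exons came to 99.56% to 102.6% of the estimated counts for these genes in each library.

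The 250 bases before the start of 4 members are shown because these genes carry the main result: after 3 h CESA1 and KOR1 were lower and CESA2 was higher in the EXPA1 OE line, and CESA3 passed no test. They were read 5′ to 3′ on the strand of the gene from the RefSeq genome TAIR10.1, before the gene start that RefSeq gives. The windows are chr4:15646845-15647094 for CESA1, chr5:1535559-1535808 for CESA3, chr5:20200469-20200718 for KOR1 and chr4:18296138-18296387 for CESA2. Capitals mark ACGTG, the core bound by many plant bZIP and bHLH factors.
CESA1: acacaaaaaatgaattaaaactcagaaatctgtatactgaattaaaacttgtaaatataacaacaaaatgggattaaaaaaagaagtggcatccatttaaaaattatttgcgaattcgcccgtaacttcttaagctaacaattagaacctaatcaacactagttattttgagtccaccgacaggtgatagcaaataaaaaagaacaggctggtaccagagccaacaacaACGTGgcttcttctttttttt
CESA3: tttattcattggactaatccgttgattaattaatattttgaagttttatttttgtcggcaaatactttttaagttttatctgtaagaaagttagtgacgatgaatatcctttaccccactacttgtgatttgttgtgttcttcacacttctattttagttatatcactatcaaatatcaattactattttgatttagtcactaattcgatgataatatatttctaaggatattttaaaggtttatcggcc
KOR1: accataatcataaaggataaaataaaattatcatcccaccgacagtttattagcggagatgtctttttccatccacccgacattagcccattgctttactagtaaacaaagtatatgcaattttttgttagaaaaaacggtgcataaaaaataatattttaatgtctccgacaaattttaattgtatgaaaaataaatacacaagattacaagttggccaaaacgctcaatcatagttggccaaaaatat
CESA2: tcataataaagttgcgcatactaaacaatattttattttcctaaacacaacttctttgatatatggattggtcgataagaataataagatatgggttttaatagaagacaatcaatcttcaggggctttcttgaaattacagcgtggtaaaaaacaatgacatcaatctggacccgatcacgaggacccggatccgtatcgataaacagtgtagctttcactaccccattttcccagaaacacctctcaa
ACGTG, searched on both strands, was present in 2 of the 9 members, CESA1 with its first base 21 bases before the start and COB with its first base 154 bases before it. It was present in 23.1% of 26699 windows of the same length. The evening element AAATATCT, a motif of clock-controlled genes, was in none of the 9 windows and in 4.84% of all windows. A match describes letters only, and no factor was measured.

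The libraries held 33618231 to 82187350 estimated counts, with a median of 55374357, and each member had between 1850 and 29322 counts in every library, so counting error was small beside the spread of replicates. Among the 3 h libraries, EXPA1 OE replicate 2 stood apart. Its counts over exons came to 83.28% of its estimated counts over all genes, against 93.25% to 97.8% in the other 23 libraries, and its 10 highest genes held 21.48% of its counts, against 9.19% to 12.9%. Chi-square per degree of freedom over genes was 354.5 to 398.4 in its pairs and 9.33 to 24.8 in the other pairs of its group. The tests of the 9 members at 3 h are therefore also given without it. Those of markers and other genes, and the shares over all genes, keep it. EXPA1 stood at 18381 ± 487 CPM (counts scaled to a common library size by the TMM method; SD, n = 4) in the line after 3 h of Dex. After 7 days of Dex the line held 13237 ± 2053 CPM, against group means of 365 to 428 elsewhere. These levels pool reads of the added and the native EXPA1 copy. All 8 shoot marker genes were measured in all groups. Of the markers of other organs and cell types, root hair genes summed to 1.75 to 21.2 CPM in any library, and no listed gene was at 0 in every library. Seed maturation genes were uneven, at 76.3 to 192 CPM in sum in WT without Dex and 1.69 to 13.8 CPM in the line without Dex.

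Across the 24 libraries the members differed in level by a fixed order at the top and a shifting one below. Levels between genes are given as CPM per kilobase of exon. KOR1 was highest at 120 ± 16.5 (SD over 24 libraries) and lay above CESA3 in 24 of 24 libraries. CESA3 at 96.5 ± 11.3 lay above CESA1 at 87.1 ± 11.9 in 23 of 24 libraries, and CESA1 lay above CESA6 in 24 of 24. CESA6 at 61.0 ± 7.89, CC1 at 59.4 ± 7.88 and COB at 58.0 ± 7.69 did not differ beyond their spread, and CESA6 was above CC1 in only 16 libraries. CESA5 at 33.9 ± 10.8 varied most relative to its mean and was above CESA2, at 27.7 ± 4.07, in 16 libraries. CSI1, with the longest transcript, was lowest at 23.6 ± 3.77. KOR1, CESA3 and CESA1 held the first places in every group, while CESA5 fell below CSI1 in the mean of the EXPA1 OE line after 3 h.

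**Figure D1:**
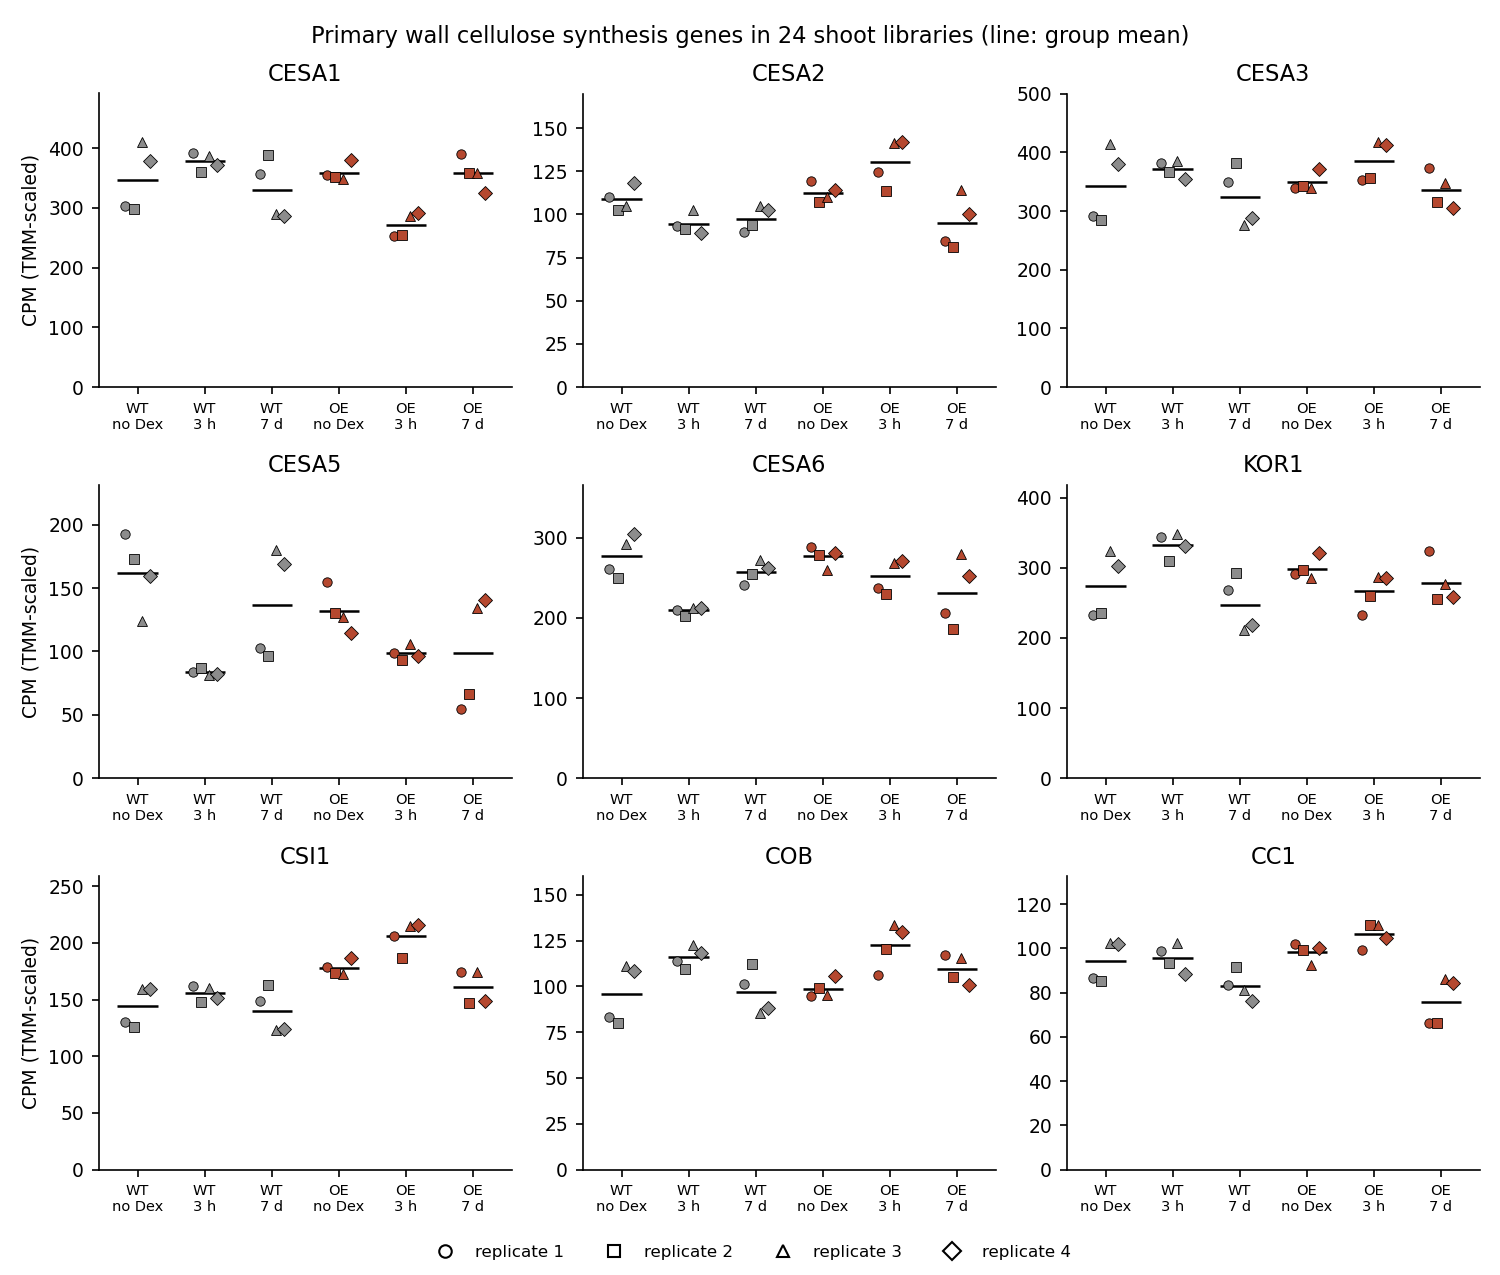
Level of each of the 9 genes in CPM (y axes, from 0) in the 24 libraries, by group; marker shapes give replicate numbers and lines the group means. After 3 h of Dex the EXPA1 OE line sits lower than WT for CESA1 (253 to 292 against 361 to 392) and higher for CESA2 (114 to 142 against 89.2 to 103).

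The first question was how the members differed between the lines after 3 h of Dex, when EXPA1 had been induced for a short time only. CESA1 and KOR1 were lower in the EXPA1 OE line, and CESA2, CSI1, CESA6, CESA5 and CC1 were higher, while CESA3 and COB passed no test. Thus 7 of 9 members passed (adjusted p under 0.05), 5 higher and 2 lower, in a comparison where 53.2% of all 20449 genes tested passed, 27.4% higher and 25.8% lower. No member reached a log2FoldChange of 1 in size, which 9.40% of genes did along with the test. The count of members that passed is therefore to be read against a background in which most genes passed, and the sizes below describe the members better than the count. All 9 members passed the filter on low counts in every comparison. The median log2FoldChange of the 9 was 0.16, against 0.02 over all genes tested.

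Among the synthases, CESA1 stood at 253, 254, 287 and 292 CPM in the 4 EXPA1 OE libraries and at 392, 361, 387 and 371 CPM in the 4 WT libraries. The groups did not overlap, as was true of 48.3% of all genes in this comparison. The log2FoldChange of CESA1 was -0.46 ± 0.06 (SE; adjusted p = 0.000106), a change of -27.5%. CESA3, its obligate partner in the complex, stood at 354, 357, 417 and 412 CPM in the line and at 383, 366, 385 and 355 CPM in WT. These groups overlapped, and the log2FoldChange of CESA3 was 0.06 ± 0.07 (adjusted p = 0.459). CESA2, of the CESA6-like class, stood at 125, 114, 141 and 142 CPM in the line and at 93.5, 91.7, 103 and 89.2 CPM in WT. Every EXPA1 OE library was above every WT library, with a log2FoldChange of 0.48 ± 0.08 (adjusted p = 0.000417), the largest of the 9.

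CESA6, the member that names the class, stood at 237, 230, 268 and 271 CPM in the line and at 210, 202, 212 and 212 CPM in WT after 3 h. Its groups did not overlap, and its log2FoldChange was 0.28 ± 0.06 (adjusted p = 0.00322). CESA5, the third of the class, stood at 99.1, 92.9, 106 and 96.8 CPM in the line and at 83.5, 87.3, 81.7 and 82.1 CPM in WT. Its groups were also apart, at a log2FoldChange of 0.25 ± 0.05 (adjusted p = 0.0022). The CESA6-like genes were thus higher in the line at this time, all 3 of them, while CESA1 was lower. The call of CESA5 was lost when all 24 libraries shared 1 estimate of the spread (adjusted p = 0.419), a fit in which the wide spread of CESA5 in other groups enters.

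Of the accessory genes, KOR1 stood at 233, 260, 287 and 285 CPM in the line and at 343, 310, 349 and 330 CPM in WT after 3 h. Its groups did not overlap, and its log2FoldChange was -0.31 ± 0.07 (adjusted p = 0.00395). CSI1 went the other way, at 206, 186, 215 and 216 CPM in the line and 162, 148, 160 and 151 CPM in WT, with no overlap and a log2FoldChange of 0.42 ± 0.06 (adjusted p = 0.000162). CSI1 was also higher in the line without Dex. COB stood at 106 to 134 CPM in the line and at 110 to 123 CPM in WT, a log2FoldChange of 0.09 ± 0.07 (adjusted p = 0.332). CC1 was at 99.3, 111, 111 and 105 CPM in the line and at 98.9, 93.3, 102 and 88.6 CPM in WT, with overlapping groups. The log2FoldChange of CC1 was 0.16 ± 0.06 (adjusted p = 0.0365), and its call was lost when any of 6 of the 8 libraries was left out (adjusted p up to 0.104) and in the fit of all 24 libraries (adjusted p = 0.141).

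When the 3 h library EXPA1 OE replicate 2 was left out, 6 members passed between the lines, 4 higher and 2 lower, and CC1 was the one that no longer did, at 0.14 (adjusted p = 0.0859). CESA1 was then at -0.44 (adjusted p = 0.00032) and KOR1 at -0.30 (adjusted p = 0.00997). The log2FoldChange was 0.53 for CESA2, 0.46 for CSI1, 0.31 for CESA6 and 0.27 for CESA5, with adjusted p from 5.28e-05 to 0.00134. CESA3 and COB were both at 0.09 and again passed no test.

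**Figure D2:**
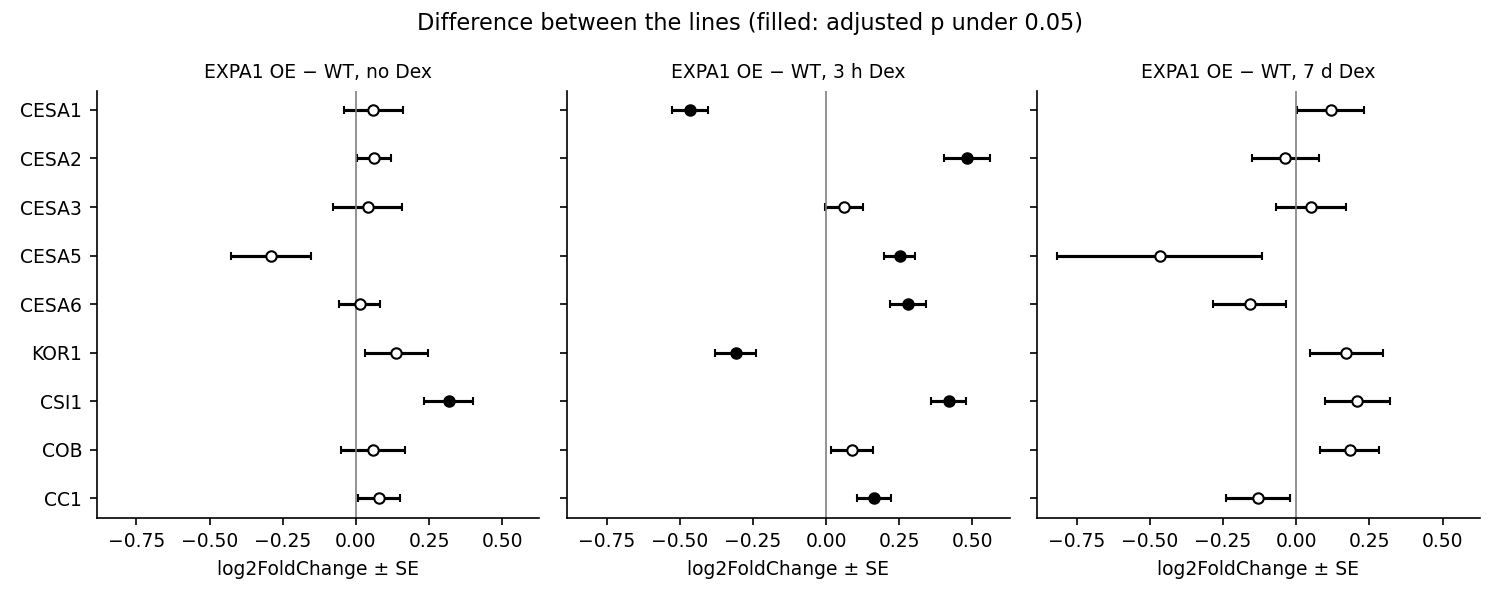
log2FoldChange of the EXPA1 OE line over WT (x axis) for each of the 9 genes without Dex, after 3 h and after 7 days, with bars of 1 SE; filled points passed the test. After 3 h the filled points run from -0.46 for CESA1 to 0.48 for CESA2, and after 7 days none is filled.

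Markers of cell types differed in the same comparison. Of 8 shoot markers none was higher and 6 were lower in the line, and their summed level was 34544 to 39508 CPM against 46622 to 51825 CPM in WT after 3 h. Of 5 root hair markers 4 were higher (11.8 to 21.2 against 2.98 to 6.56 CPM in sum), and of 4 markers of dividing cells 2 were lower (77.3 to 83.9 against 94.5 to 104 CPM). Of 6 xylem markers 2 were lower (35.8 to 41.2 against 45.1 to 49.6 CPM), and of 5 tested markers of other root cells 1 was higher. Seed maturation genes differed most in size: of 5, 3 were lower, all 3 by more than 1 on the log2 scale. Their median was -3.04, in a range of -4.38 to 1.33, with sums of 1.22 to 20.6 against 12.2 to 72.4 CPM. Without Dex 5 of 5 were lower in the line as well, at a median of -4.05, where 10.5% of genes passed. The change from no Dex to 3 h differed between the lines for 1 of 5, as higher, where 38.4% of genes passed. Fewer cells of a type and less RNA per cell cannot be told apart in whole shoots, and the part of these markers in the differences of the members was not tested.

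The balance of the synthase transcripts was described without a test, since no test was made of a score over members. The ratio of CESA1 to CESA3 in CPM per kilobase was 0.666, 0.661, 0.640 and 0.660 in the 4 EXPA1 OE libraries after 3 h of Dex. It lay between 0.917 and 1.06 in the other 20 libraries, so that the libraries of this group stood apart from all others. How many other pairs of genes part in this way was not counted. Of single genes, 62.5% had groups apart between this group and the line without Dex. Group means were 0.657 ± 0.0115 in the line after 3 h and 0.945 ± 0.0237 in WT after 3 h (SD, n = 4), and 0.995 ± 0.0431 in the line after 7 days. Within the other groups the ratio held even where the level of CESA1 moved: in WT without Dex CESA1 ran from 298 to 410 CPM, and the ratio from 0.920 to 0.976. Exon counts gave 0.660 in the EXPA1 OE line after 3 h. Without replicate 2 of this group the mean was 0.655 ± 0.0134 (SD, n = 3).

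The sum of the 5 synthases after 3 h of Dex was 299 ± 24.3 CPM per kilobase in the EXPA1 OE line against 298 ± 8.62 in WT (SD, n = 4), within the spread of replicates. Within that sum, CESA1 made up 23.3% ± 0.325 in the line and 32.4% ± 0.519 in WT. CESA3 made up 35.4% ± 0.507 and 34.3% ± 0.477. CESA2 made up 11.4% ± 0.391 in the line and 8.23% ± 0.353 in WT, CESA6 20.5% ± 0.185 and 17.1% ± 0.440, and CESA5 9.48% ± 0.595 and 8.02% ± 0.414. CESA2, CESA5 and CESA6 together took 41.3% ± 0.663 in the line and 33.3% ± 0.550 in WT. Their share in the line after 3 h was close to that in both lines without Dex. Without Dex it was 44.0% ± 4.67 for WT and 41.7% ± 1.87 for the EXPA1 OE line. It was WT after 3 h that held the lowest group mean. KOR1 kept a higher level than CESA1 in all libraries, and their ratio was 1.62 ± 0.0730 in the line after 3 h, against 1.18 to 1.49 in the other 20 libraries. How common such a gap is among pairs of genes was not counted here either.

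**Figure D3:**
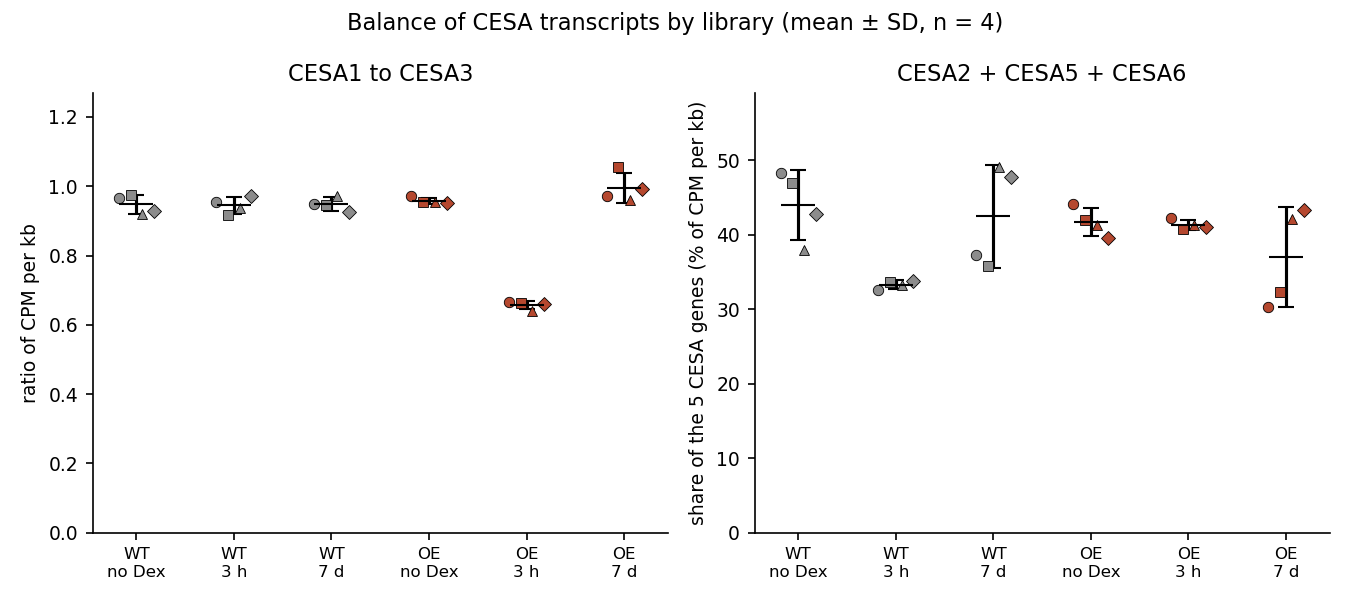
Ratio of CESA1 to CESA3 (left) and summed share of CESA2, CESA5 and CESA6 among the 5 CESA genes (right, in percent), both from CPM per kilobase, by group; points are libraries and bars the mean ± SD of 4. The EXPA1 OE line after 3 h holds ratios of 0.640 to 0.666, all under the 0.917 to 1.06 of the other libraries.

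How each line changed with 3 h of Dex was examined next, against its own libraries without Dex. Dex itself, the handling at induction and the hour of harvest cannot be told apart in this comparison. In WT, 3 of 9 members passed as lower and none as higher, where 36.4% of all genes passed and 17.9% passed with a fall. CESA5 fell furthest, from 193, 173, 124 and 159 CPM without Dex to 83.5, 87.3, 81.7 and 82.1 CPM. No library overlapped, as for 37.4% of genes, and the log2FoldChange of CESA5 was -0.94 ± 0.12 (adjusted p = 0.00044). CESA6 fell from 261, 249, 292 and 305 CPM to 210, 202, 212 and 212 CPM, a log2FoldChange of -0.39 ± 0.07 (adjusted p = 0.0021), again with no overlap. CESA2 fell by 0.19 ± 0.06 on the log2 scale (adjusted p = 0.0419) with overlapping groups, and its call was lost with a replicate block (adjusted p = 0.0898), in the fit of all 24 libraries and without any of 5 libraries. KOR1 at 0.30 ± 0.11 (adjusted p = 0.0619) and COB at 0.29 ± 0.11 (adjusted p = 0.0632) missed the threshold. With the replicate block both passed as higher, KOR1 at 0.31 (adjusted p = 0.0419) and COB at 0.31 (adjusted p = 0.0286). Thus 4 members passed there, 2 higher and 2 lower, where 32.4% of genes passed. COB also passed in the fit of all 24 libraries (adjusted p = 0.0424) and without replicate 4 of WT without Dex. Both passed without replicate 3 of that group, which raised the count from 3 to 5.

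In the EXPA1 OE line 6 of 9 members passed after 3 h of Dex against no Dex, 3 higher and 3 lower, where 67.1% of all genes passed, 33.7% higher and 33.3% lower. CESA1 went from 355, 352, 349 and 380 CPM to 253, 254, 287 and 292 CPM, a log2FoldChange of -0.41 ± 0.06 (adjusted p = 9.7e-05) with no overlap, as for 62.5% of genes. CESA5 went from 155, 131, 127 and 115 CPM to 99.1, 92.9, 106 and 96.8 CPM, at -0.43 ± 0.08 (adjusted p = 0.000785). COB rose from 94.6, 99.1, 95.5 and 106 CPM to 106, 120, 134 and 130 CPM, at 0.30 ± 0.07 (adjusted p = 0.00376), and these groups did not overlap either. CSI1 rose by 0.20 ± 0.06 (adjusted p = 0.00702), CESA2 rose by 0.20 ± 0.07 (adjusted p = 0.0284) and KOR1 fell by 0.17 ± 0.07 on the log2 scale (adjusted p = 0.0477). Leaving out a library lost the call of CESA2 in 4 of 8 fits and that of KOR1 in 6. In the fit of all 24 libraries the calls of CESA5 (adjusted p = 0.155) and KOR1 (adjusted p = 0.279) were lost. Without replicate 2 of the line after 3 h, 6 members passed, 4 higher and 2 lower: KOR1 no longer did (adjusted p = 0.0852), and CESA3 did, at 0.17 (adjusted p = 0.0426).

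Markers differed here too. Of 8 shoot markers 7 were lower after 3 h in the EXPA1 OE line (34544 to 39508 against 51481 to 55725 CPM in sum). All 5 root hair markers were higher (11.8 to 21.2 against 1.75 to 4.38 CPM), and of 6 xylem markers 4 were lower and 1 higher. Of 4 markers of dividing cells 2 were lower, of 5 tested markers of other root cells 3 were higher, and of 5 seed maturation genes 1 was higher and 2 were lower. The part of these markers in the changes of the members was not tested.

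The difference between the lines in their change over 3 h of Dex was tested directly, as an interaction over 16 libraries. It passed for 4 of 9 members, where 38.4% of genes passed. CESA1 had an interaction of -0.55 ± 0.12 on the log2 scale (adjusted p = 0.00284), at 0.13 ± 0.10 in WT and -0.41 ± 0.06 in the line. KOR1 had -0.47 ± 0.14 (adjusted p = 0.0137), CESA2 0.39 ± 0.10 (adjusted p = 0.00621) and CESA5 0.52 ± 0.15 (adjusted p = 0.0147). The log2FoldChange of CESA5 was -0.94 in WT and -0.43 in the line. The interaction of CESA5 was lost in the fit of all 24 libraries (adjusted p = 0.225), and that of CESA6, 0.24 ± 0.10, missed the threshold (adjusted p = 0.0564) and passed under 5 other settings of the analysis. CESA3 had an interaction of 0.00 ± 0.14 and COB of 0.01 ± 0.14. CSI1 at 0.08 ± 0.11 (adjusted p = 0.601) showed no tested difference between the lines in its change. Without replicate 2 of the line after 3 h, 5 members passed: CESA1 (-0.52), KOR1 (-0.46), CESA2 (0.45), CESA5 (0.54) and CESA6 (0.28, adjusted p = 0.0298).

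After 7 days on Dex none of the 9 members passed between the lines by edgeR's test, where 14.1% of genes passed, and the groups overlapped for all 9, where 23.2% of genes had groups apart. None passed at an unadjusted p under 0.05 and none by DESeq2. CESA1 stood at 390, 359, 358 and 325 CPM in the line and at 357, 389, 289 and 286 CPM in WT. These groups overlapped, and the log2FoldChange was 0.12 ± 0.11 (adjusted p = 0.495). CSI1 was at 174, 147, 175 and 148 CPM against 148, 163, 123 and 124 CPM, at 0.21 ± 0.11 (adjusted p = 0.231). CESA5 was at 54.7, 66.7, 134 and 140 CPM in the line and at 102, 96.4, 180 and 169 CPM in WT. In both lines replicates 1 and 2 of CESA5 were low and replicates 3 and 4 high, and each EXPA1 OE library was below the WT library of its number. The log2FoldChange of CESA5 was -0.47 ± 0.35 (adjusted p = 0.381), and with the replicate number as a block it was -0.53 (adjusted p = 0.0126). CESA5 was the sole member to pass with the block, where 30.4% of genes passed. The other 8 members had values from -0.16 to 0.21.

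The change in the difference between the lines from 7 days to 3 h was tested over 16 libraries, and 4 of 9 members passed, where 29.0% of genes did. CESA1 had -0.59 ± 0.13 on the log2 scale (adjusted p = 0.00343), KOR1 -0.49 ± 0.15 (adjusted p = 0.0227), CESA2 0.51 ± 0.15 (adjusted p = 0.0182) and CESA6 0.43 ± 0.15 (adjusted p = 0.0417). These tests share the 3 h libraries with the comparisons above, so they are no separate evidence of the same differences. The count of 4 dropped to 2, CESA1 and CESA2, without replicate 1 of WT after 3 h, replicate 3 or replicate 4 of WT after 7 days. Without that 3 h library, EXPA1 OE replicate 2, the same 4 members passed, KOR1 narrowly (adjusted p = 0.0488). Leaving out 1 library at a time lost the call of CESA6 in 9 of 16 fits and that of KOR1 in 4. CESA5 had the widest error of the 9, at 0.70 ± 0.38 (adjusted p = 0.185).

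Within each line, 7 days of Dex against no Dex changed little among the members. In WT none of the 9 passed by edgeR or DESeq2, or at an unadjusted p under 0.05, where 0.00963% of all genes passed. Member values in WT ran from -0.24 ± 0.23 for CESA5 to 0.01 ± 0.14 for COB. In the EXPA1 OE line CC1 alone passed, from 102, 99.4, 92.6 and 100.1 CPM to 66.2, 66.4, 86.2 and 84.3 CPM, where 29.5% of genes did. Its groups did not overlap, as for 33.4% of genes, and its log2FoldChange was -0.37 ± 0.10 (adjusted p = 0.021). CC1 no longer passed with the replicate block (adjusted p = 0.0669) and without any of 4 libraries (replicates 1, 2 or 4 without Dex, or replicate 2 after 7 days). CESA2 at -0.24 ± 0.10 and CESA6 at -0.26 ± 0.12 missed the threshold, and passed along with CC1 when all 24 libraries shared 1 fit, or when replicate 3 after 7 days was left out. The interaction of line and 7 days of Dex passed for none of the 9 by edgeR or DESeq2, or at an unadjusted p under 0.05, where 10.3% of genes passed.

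Without Dex, CSI1 alone of the 9 differed between the lines, where 10.5% of genes passed. It stood at 179, 173, 172 and 187 CPM in the line and at 131, 126, 160 and 159 CPM in WT. The groups did not overlap, as for 19.9% of genes, and the log2FoldChange was 0.32 ± 0.08 (adjusted p = 0.044). The adjusted p of CSI1 ran from 0.0305 to 0.13 when single libraries were left out, and 6 of those 8 fits, 5 other settings among them the exon counts (adjusted p = 0.0525) and the block (adjusted p = 0.0566) lost the call. EXPA1 itself did not pass in this comparison, at a log2FoldChange of 0.24. Seed maturation genes, 5 of 5, and root hair markers, 3 of 5, were lower in the line here, and their part in the value of CSI1 was not tested.

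The replicates of a group parted in a way that the members shared. In WT without Dex, CESA3 stood at 291 and 284 CPM in replicates 1 and 2 and at 414 and 380 CPM in replicates 3 and 4. CESA1, KOR1, COB and CSI1 went with it in this group. In WT after 7 days the order was turned, with CESA3 at 349 and 383 CPM in replicates 1 and 2 and at 277 and 288 CPM in replicates 3 and 4. CESA5 went against these genes, at 102 and 96.4 CPM in the first pair and 180 and 169 CPM in the second. In the EXPA1 OE line after 7 days CESA5 parted more widely still, while CESA3 at 373, 316, 347 and 305 CPM did not part there by these pairs. The median coefficient of variation of the 9 members was 16.0% in WT without Dex and 13.9% in WT after 7 days, against 8.95% and 9.52% over all genes above 10 CPM, and 4.39% in WT after 3 h.

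**Figure D4:**
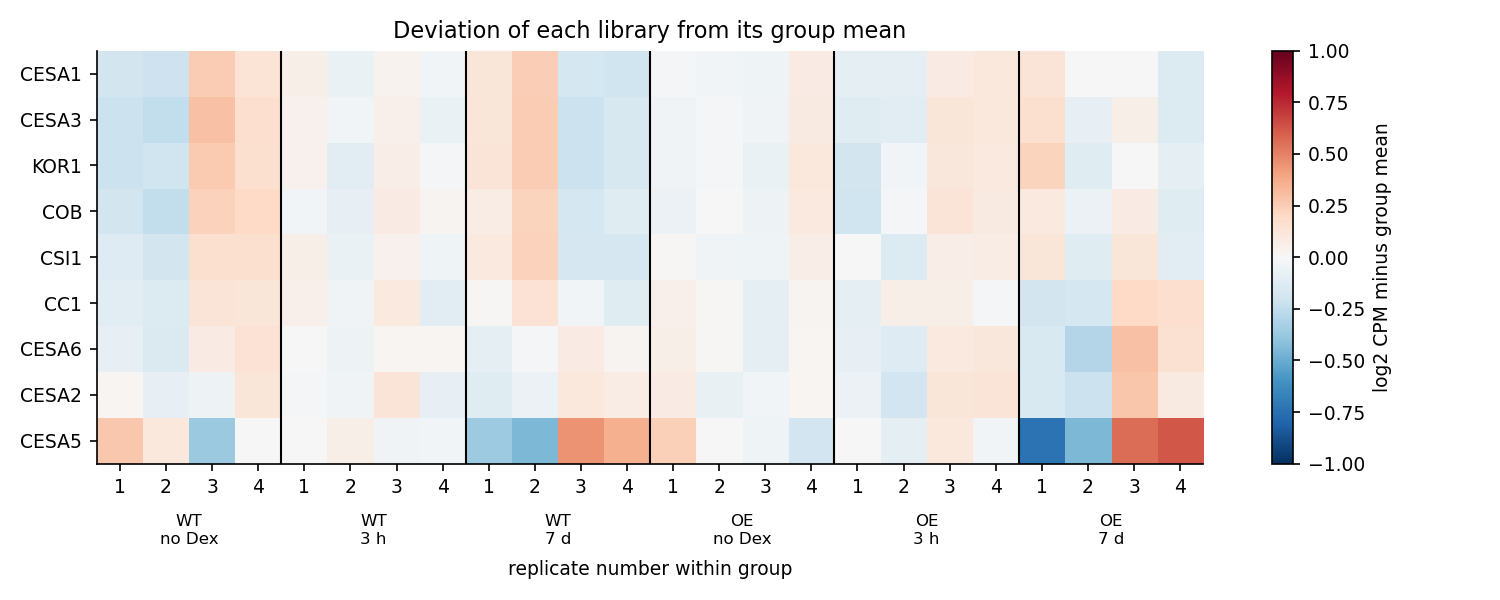
Deviation of the log2 CPM of each gene (rows) from its group mean, for 24 libraries in groups of 4 (columns, by replicate number); red is above and blue below the mean. CESA1, CESA3, KOR1, COB and CSI1 share their colours in WT without Dex and in WT after 7 days, and CESA5 has the opposite ones in WT after 7 days.

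The morning clock genes CCA1 and LHY, and the clock gene TOC1, were picked after their values were seen. LHY stood at 104 and 88.6 CPM in replicates 1 and 2 of WT after 7 days and at 179 and 151 CPM in replicates 3 and 4. In the EXPA1 OE line after 7 days LHY stood at 33.5 and 40.7 CPM in replicates 1 and 2 and at 101 and 127 CPM in replicates 3 and 4. These are the libraries in which CESA5 was low and high in turn. CCA1 parted likewise in WT after 7 days, at 90.9, 81.9, 141 and 121 CPM, but not in the EXPA1 OE line after 7 days, at 54.7, 75.0, 74.7 and 87.2 CPM. In WT without Dex LHY was at 271, 224, 148 and 203 CPM and CESA5 at 193, 173, 124 and 159 CPM, the same order in both. The order was also shared in the EXPA1 OE line without Dex. LHY stood there at 189, 154, 135 and 132 CPM and CESA5 at 155, 131, 127 and 115 CPM. TOC1 stood at 18.0, 18.5, 18.2 and 18.7 CPM in WT without Dex. After 7 days TOC1 was at 23.1, 20.3, 16.9 and 18.6 CPM in WT and at 27.1, 23.9, 17.1 and 18.1 CPM in the line. CCA1 was at 175, 156, 151 and 162 CPM in WT after 3 h and at 84.6, 83.2, 91.4 and 101 CPM in the EXPA1 OE line after 3 h, with no overlap. LHY did overlap there, at 148, 132, 119 and 149 CPM in WT after 3 h and at 115, 110, 132 and 140 CPM in the EXPA1 OE line after 3 h. CESA5 did not share the order of LHY in either group after 3 h. It was at 83.5, 87.3, 81.7 and 82.1 CPM in WT and at 99.1, 92.9, 106 and 96.8 CPM in the line. The hour of harvest is not given in the sources used here, and the part of the clock genes in the values of the members was not tested.

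Likeness among the members was described by Pearson's r of log2 CPM over libraries that share groups and scaling, so no p is given. Over deviations from the group means in 24 libraries, CESA1 and CESA3 had an r of 0.977, CESA1 and KOR1 of 0.953, and CESA3 and COB of 0.947. Over the levels themselves, r between CESA1 and CESA3 was 0.386 in all 24 libraries and 0.965 in the 20 without the EXPA1 OE line after 3 h. CESA1 and KOR1 had 0.765 and 0.919 in the same sets. CESA2 and CESA6 formed another pair, with an r of 0.872 over deviations. CESA5 ran against CESA1 (-0.668) and KOR1 (-0.625) over deviations and with CESA2 (0.699).

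The genes most like the mean of the 9 standardised profiles were sought among 18220 genes with a mean of at least 1 CPM over the 24 libraries. The highest r was 0.93 for FLA18, a fasciclin-like arabinogalactan protein gene, followed by 0.88 for CSLC04, which encodes a synthase of the xyloglucan backbone. AT5G41800 (0.85), LOX6 (0.84), SKU5 (0.83), AGP16 (0.82), AT1G13880 (0.82), VPS28-1, EXO70D2 and AT1G64563 (each 0.81) followed. SKU5 encodes an anchored protein of directional growth and AGP16 an arabinogalactan peptide. The mean profile was closest to CESA3 (0.82) and CC1 (0.81) and did not stand for CESA5 (-0.04) or CESA1 (0.25).

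Other genes of cellulose synthesis were read by list in the comparison of the lines after 3 h, again against 53.2% of genes passing. The 3 synthases of the secondary CW, CESA4, CESA7 and CESA8, were lower in the line, from -0.45 to -0.55, and CESA8 stood at 6.76 against 9.98 CPM. Of the other synthases of the primary type, CESA9 was lower (-0.95 ± 0.28, adjusted p = 0.0135) at under 2 CPM, and CESA10 was too low to test. Of 10 other factors of cellulose synthesis none was higher and 7 were lower, where 25.8% of all genes passed as lower. Their median was -0.43. RSW3, a subunit of a glucosidase that trims N-glycans in the endoplasmic reticulum, stood at 54.5 CPM in the line and 112 CPM in WT (-1.02 ± 0.05, adjusted p = 9.78e-08). KNF, which acts before it in the same trimming, was at -0.87 ± 0.08, and CTL1, a chitinase-like protein that binds to the assembling glucan, fell from 372 CPM in WT to 204 CPM in the line (-0.86 ± 0.05, adjusted p = 4.89e-07). After 7 days none of the 10 factors and none of the 3 secondary CW synthases passed by edgeR, where 14.1% of all genes passed.

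Among 7 paralogs of KOR1, CSI1 and CC1, 6 were tested after 3 h, 2 were higher and 4 passed no test. KOR3 was at 1.22 ± 0.24 (adjusted p = 0.00136), with 1.69 CPM in the line and 0.730 CPM in WT. KOR2 was at 0.73 ± 0.21, while KOR1 itself was lower. KOR3 was also higher after 7 days, at 3.94 against 1.22 CPM (1.69 ± 0.36, adjusted p = 0.018). CSI2 was higher without Dex, as CSI1 was, at 1.85 ± 0.39 (adjusted p = 0.0218), with group means of 0.341 and 0.0956 CPM. Of 10 COBRA-like genes 7 were tested after 3 h, 1 higher and 4 lower. COBL9, known from root hair growth, was higher (1.24 ± 0.33, adjusted p = 0.0096) from 0.471 CPM in WT, and COBL1 was lower after 3 h (-0.70 ± 0.09) and after 7 days (-0.65 ± 0.13). COBL2, known from seed coat cellulose, was at -0.31 ± 0.10 after 3 h and at 0.77 ± 0.19 after 7 days, both past the test.

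Of 10 genes that supply UDP-glucose, the substrate of cellulose synthase, 2 were higher and 4 lower after 3 h, where 53.2% of genes passed. After 7 days 2 were higher and 1 lower, where 14.1% of genes passed. SUS4, a sucrose synthase gene, had the largest difference after 3 h (2.36 ± 0.54, adjusted p = 0.00393), with means of 9.10 against 1.79 CPM. Its libraries spread widely, from 2.33 to 15.7 CPM in the line against 1.25 to 2.32 CPM in WT. SUS6 at 22.0 against 10.8 CPM (1.03 ± 0.09, adjusted p = 0.000476) and SUS5 at 8.85 against 4.09 CPM (1.12 ± 0.11, adjusted p = 0.00082) were higher after 7 days. SUS3 was lower without Dex (-1.01 ± 0.22, adjusted p = 0.025). Of 6 CSLD genes 4 were tested after 3 h, 2 higher and 1 lower. CSLD5, which acts at the cell plate of dividing cells, fell from 105 CPM in WT to 47.7 CPM in the line (-1.12 ± 0.06, adjusted p = 8.15e-08), and CSLD2 was at 0.31 ± 0.07.

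**Figure D5:**
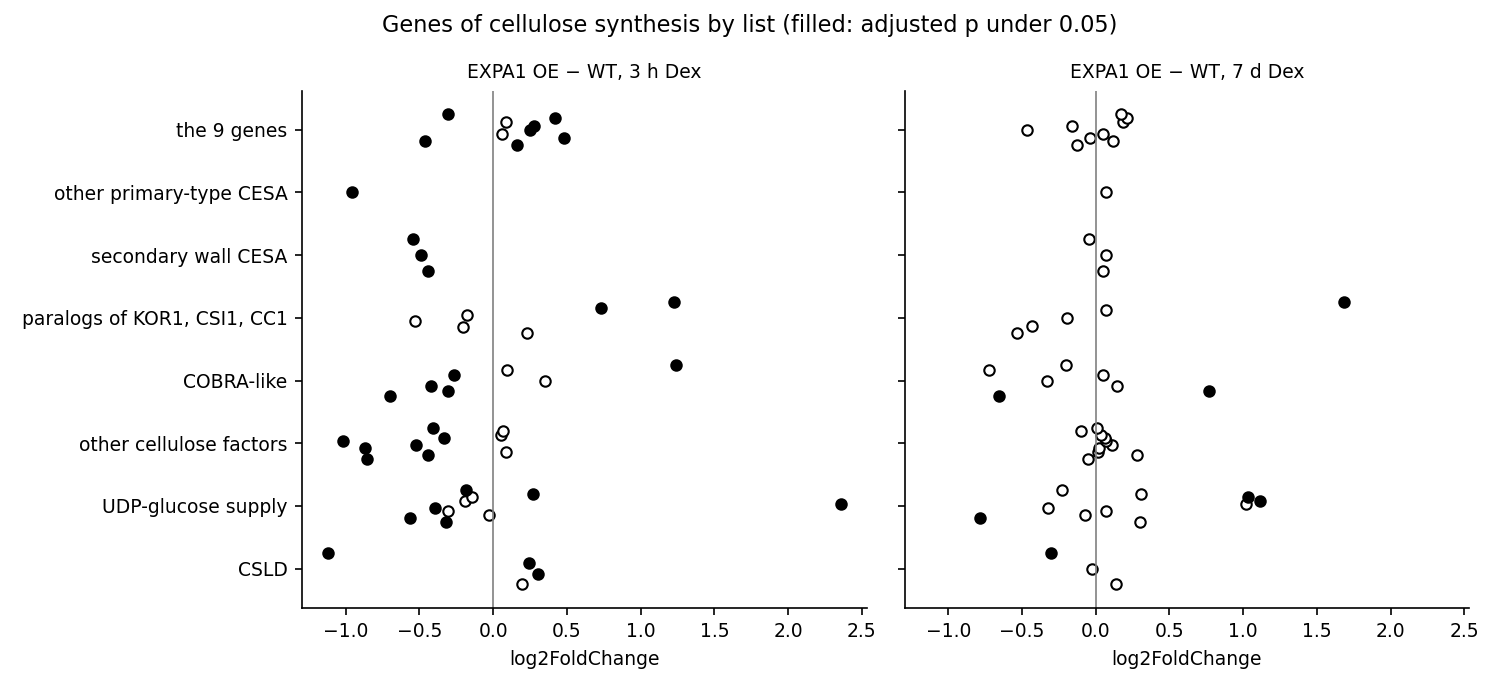
log2FoldChange of the EXPA1 OE line over WT (x axis) after 3 h (left) and 7 days (right) of Dex for the 9 genes and 7 further lists of genes of cellulose synthesis; each point is a gene and filled points passed the test. After 3 h the filled points of the other cellulose factors all lie to the left, from -1.02 for RSW3. After 7 days none of that list is filled, where 14.1% of all genes passed.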

How the data were processed

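RNA-seq libraries of 24 shoot samples were read from the deposited gene tables. The authors used Trimmomatic for trimming, STAR for alignment to TAIR10 and RSEM for estimating counts. The deposited estimated counts (expected counts, 3.823% of values not whole) were rounded here. The authors also deposited counts over exons made with featureCounts, used as an alternative. Molecular identifiers for detecting PCR duplicates were part of the libraries, per the study's methods. Whether the deposited counts were deduplicated with them is not given in the sources used here.

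Tests used edgeR 4.0.16 in R 4.3.3: filtering by expression, TMM scaling, the quasi-likelihood F test over all tested genes of the 8 libraries of a comparison or the 16 of a contrast, and Benjamini-Hochberg adjustment. A gene passed at an adjusted p under 0.05. SE is the size of the log2FoldChange over the root of F. P-values measure the spread between the replicas, whose separate origin is not described further. Groups came from the sample titles. DESeq2 1.42.0, other scalings, filters, a replicate block and each library left out were alternatives. The members and lists were chosen with earlier results of these data known. The text names all 9 members, genes of the other lists that passed with a log2FoldChange of at least 1 in size between the lines, at least the 2 largest of a list, and the 10 genes most like the mean profile. Same-numbered libraries deviated together only in the comparison of the lines after 7 days (r from 0.208 to 0.579 in 4 pairs), where 2 of 8 libraries were closest to their own number. No source states a pairing. No 2 replicates agreed within sampling noise. The file coordinates were tested against the RefSeq genome TAIR10.1, where 98.94% of 81534 introns began and ended with the usual splice letters.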

Additional observations from a re-analysis of the deposited data

Results flagged for a closer look

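In the EXPA1 OE line without Dex, CESA3 in replicate 4 stood at 372 CPM, apart from the other replicates at 340 to 343 CPM. Its gap was 0.906 of the range of the group, above the limit of Dixon's test for 4 samples. It was the only such library in 54 groups of member and treatment, of which chance would flag about 1 in 20.

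The change from no Dex to 3 h differed between the lines by the interaction test. It did so for CESA1 (-0.55), CESA2 (0.39), CESA5 (0.52) and KOR1 (-0.47), on the log2 scale. The difference between the lines also differed between 3 h and 7 days for CESA1 (-0.59), CESA2 (0.51), CESA6 (0.43) and KOR1 (-0.49). Both sets of tests use the same 8 libraries of 3 h of Dex. Between 3 h and 7 days, the calls of CESA6 and KOR1 were lost in some fits with a library left out.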

How the results depend on the processing

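No member that passed changed its direction under any alternative. Of the single values, 14 of 720 under other settings and 66 of 936 with a library left out had another sign, none of them past the threshold on either side. Requiring a log2FoldChange of at least 1 in size left 0 members in every comparison of the main fits. With a library left out, CESA5 in WT over 3 h reached -1.07, with edgeR's adjusted p at most 0.0026 in such fits. Between the lines after 3 h, 7 members passed in every other setting except the fit of all 24 libraries (5), and 6 to 7 with a library left out. For no Dex, 0 passed with exon counts, median-ratio size factors, at least 10 counts in every library, all 24 libraries in 1 fit or the replicate block, against 1, and 0 to 2 with a library left out. After 7 days of Dex the replicate block gave 1 in place of 0. In the line over 7 days, 3 passed in the fit of all 24 libraries and 0 with the replicate block, against 1, and 0 to 3 with a library left out. The ranges with a library left out were 2 to 5 in WT over 3 h, 4 to 7 in the line over 3 h, 4 to 5 for the interaction at 3 h and 2 to 4 for the difference of 3 h and 7 days. The replicate block changed no other count by over 1.5 times. Of single calls outside the left-out libraries, 13 were lost and 13 gained. The causes were not tested. Over all genes, the share passing after 7 days rose from 14.1% to 20.7% with DESeq2, 30.6% in the fit of all 24 libraries and 30.4% with the block. For no Dex it was 16.2% with DESeq2 and 6.22% with the block, for the line over 7 days 16.1% with the block, and for WT over 7 days at most 0.723%.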
